A study of Solanum lycopersicum and Solanum tuberosum and Capsicum annuum and Nicotiana tabacum with 10 samples.

Results

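Tomato and pepper belong to the nightshade family, as does potato, to which tomato is more closely related than pepper is. Mature leaves of such plants carry out photosynthesis, make sucrose and transitory starch, and hold enzymes and protein inhibitors that act against chewing insects and pathogens. A clone on a potato cDNA array is a stretch of potato cDNA spotted on glass, and RNA of a related species binds to it as far as the sequences match. The comparison described here asked which of these clones gave a different signal with tomato leaf RNA than with pepper leaf RNA.

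The comparison used the 2 arrays on which tomato leaf RNA was hybridized and the 2 on which pepper leaf RNA was hybridized, 4 of 10 arrays in the series. Potato leaf RNA filled the second channel of each. The 6 remaining arrays held tobacco, Nicotiana benthamiana and petunia, 2 each, and entered the estimate of error and 1 further comparison. All plants were untreated and were kept at 25°C with 16 h light and 8 h dark, and mature leaves were taken after 4 to 6 weeks. The query species (tomato, pepper or another) carried Cy3 and potato carried Cy5 on every array, with no dye swap. No cultivar is given in the labels. Replicate 1 arrays shared 1 potato extract and replicate 2 arrays another, so tomato and pepper were paired by replicate number and potato and dye cancelled in the difference. Whether a species' 2 extracts were made from different plants is not stated. The p-values therefore cover no more than the spread among these samples, and that spread may be technical.

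Of 15360 clone positions, 10954 were measured on 1 or more of the 10 arrays and 8739 were measured on all 4 tomato and pepper arrays. These 8739 clones, 79.8% of those seen at all, are the members compared. A single gene symbol was given for 673 of them, which stood for 391 genes, and 82 of these genes had a name other than a locus number. The remaining clones are counted but not named. Both spots of a clone had a value on all 4 arrays for 5964 members. Because each value is a ratio to potato, the arrays give no level within a species, and the tissue could not be checked against leaf markers.

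Values below are log2 ratios of the query species over potato for each array, and differences are tomato over pepper on the log2 scale, so that 1 unit is 2-fold. The direction of the deposited ratio is not stated, and the one used here is likely, resting on array titles that name potato first. The skewness of the differences was close to 0 (0.034 in replicate 1 and 0.13 in replicate 2) and does not settle it. If it were the opposite, every sign below would turn. Weaker binding of tomato or pepper RNA to a potato probe cannot be told apart from a lower RNA level, and fewer cells of a type cannot be told apart from less RNA per cell.

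Roughly similar numbers of clones differed in each direction. limma called 3070 of the 8739 clones at an adjusted p under 0.05, which is 35.1% of those tested. Of these, 1447 (16.6% of the clones tested) were higher and 1623 (18.6%) were lower in tomato. A difference beyond 2-fold was called for 1218 clones, or 13.9%, with 607 higher and 611 lower in tomato. Beyond 4-fold there were 84 higher and 86 lower, and beyond 8-fold 13 higher and 20 lower. The fitted difference lay within 2-fold for 7510 clones (85.9%), with a median of -0.06 and a median size of 0.41 on the log2 scale. The number of calls depended on single arrays, and leaving 1 out leaves only 1 array of that species in the fit. Without replicate 1 of tomato 1947 clones were called, without replicate 1 of pepper 1584, and without replicate 2 of pepper 1787.

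The replicates gave similar differences. Across the 8739 clones, which are not independent replicates, the differences of replicate 1 and replicate 2 had a Pearson r of 0.811 and a Spearman rho of 0.759. They differed from each other by a median of 0.28 on the log2 scale. The sign was the same in both replicates for 6836 clones (78.2%). All 3070 called clones had the same sign, and 2986 of them had no overlap between the tomato and pepper values. The call rests on these same differences, so agreement among called clones is no separate support. Without regard to the test, tomato lay above pepper on all 4 arrays for 28.9% of the clones and below it for 34.6%. Repeat arrays varied with an SD of 0.25 for tomato and 0.35 for pepper. The tomato arrays had a value for 10439 and 10155 clones and the pepper arrays for 9279 and 10100. The duplicate spots of a clone differed with an SD of 0.229 and 0.242 on the tomato arrays and of 0.334 and 0.252 on the pepper arrays, so pepper replicate 1 had the fewest clones and the widest spread.

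**Figure D1:**
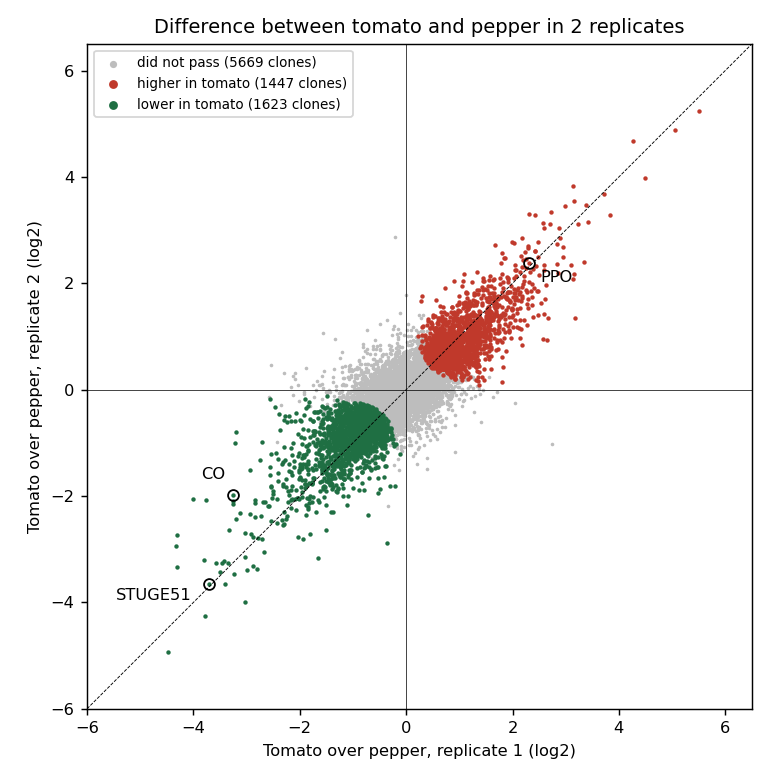
Difference between tomato and pepper (tomato over pepper, log2) in replicate 1 on the x axis and replicate 2 on the y axis for the 8739 clones measured on all 4 arrays. Points are clones, red where called higher in tomato, green where called lower and grey where they did not pass. The called clones, chosen on these same differences, follow the dashed line of equal differences, and circles mark STUGE51, CO and PPO.

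Among the 82 genes with a gene name, 19 had a clone called higher in tomato, 21 had one called lower and 42 had none. By clones, 25 of 126 were higher and 27 were lower, so that 41.3% passed, against 35.1% over all clones. Of these 52 called clones, 27 clones of 23 genes (16 higher, 11 lower) passed with any 1 of the 4 arrays left out. Over all 673 clones with a symbol, 165 (24.5%) were higher and 115 (17.1%) lower, where 16.6% and 18.6% of all clones were. Their median difference was 0.08, against -0.07 for the clones with no symbol or several.

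**Figure D2:**
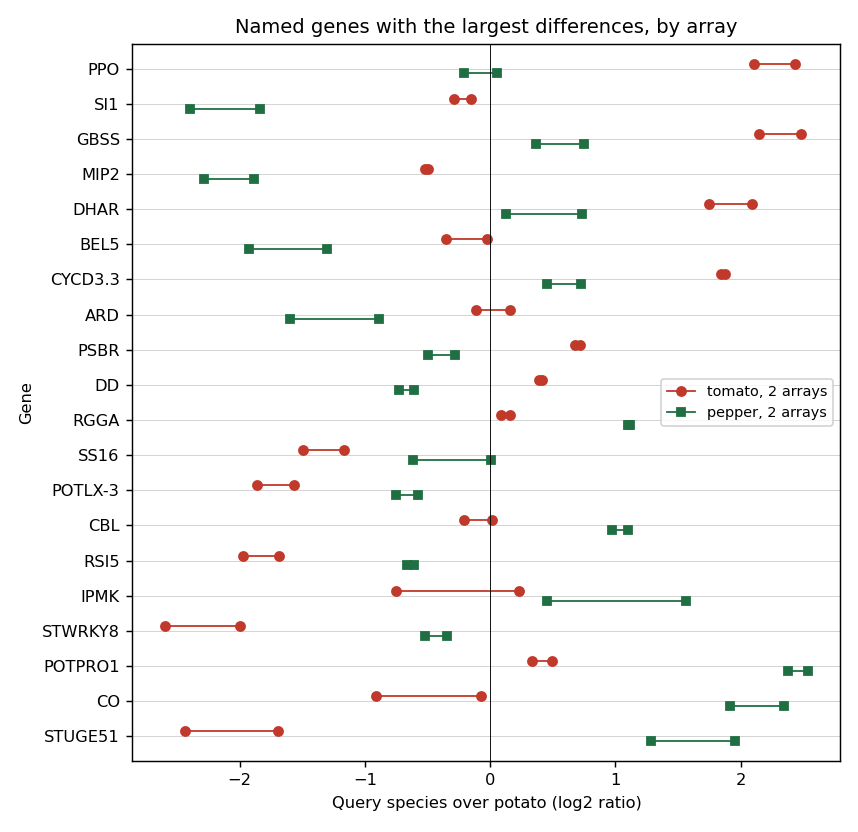
Log2 ratio of tomato (red circles) and pepper (green squares) over potato for the 10 named genes with the largest called difference in each direction, on the clone with the largest difference. Each point is an array and the line joins the 2 arrays of a species. Genes run in order of the difference, with PPO at the top and STUGE51 at the bottom. In none of the 20 do the species overlap, which the choice of large called differences favours.

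The largest difference among named genes was that of STUGE51, a UDP-glucose epimerase that interconverts UDP-glucose and UDP-galactose, the sugar donor for galactose-containing wall polymers. Its log2 ratios over potato were -2.43 and -1.69 in tomato, against 1.28 and 1.95 in pepper. The signal was thus below potato in both tomato samples and above it in both pepper samples. The difference was -3.68 (SE 0.22, adjusted p = 6.8e-06), or 12.8-fold lower in tomato, and a second clone of the gene gave -3.54 (SE 0.31). STUGE45, another UDP-glucose epimerase, did not follow it. Its ratios were 0.80 and 0.42 in tomato, against 0.11 and 0.44 in pepper, with a difference of 0.34 that did not pass (adjusted p = 0.26).

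The opposite held for GBSS, a granule-bound starch synthase and the enzyme of amylose synthesis. Its ratios were 2.15 and 2.48 in tomato, against 0.37 and 0.75 in pepper, a difference of 1.76 (SE 0.19, adjusted p = 0.00012). All 4 arrays lay above potato for this clone. AMYA1, an alpha-amylase that degrades starch, gave -0.27 and did not pass (adjusted p = 0.23). PAIN-1, the vacuolar invertase that splits sucrose, stood at -1.25 and -1.98 in tomato, against -0.24 and -1.22 in pepper. It was called lower in tomato (-0.89, adjusted p = 0.028), but the highest tomato and the lowest pepper value nearly met and it no longer passed without tomato replicate 1 (adjusted p = 0.21), pepper replicate 1 (0.086) or pepper replicate 2 (0.16). In the list of starch and sucrose genes, 1 clone of 4 was higher, 2 were lower and 1 did not pass, with a median of -1.90 against -0.06 over all clones, of which 16.6% were higher and 18.6% lower. The 2 lower ones were both STUGE51. PAIN-1 and STUGE45, named after their values were seen, were not matched to the list by symbol and are not in these counts. Other starch or sucrose genes that the symbols did not match may be missing too.

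The 2 genes that the defence list matched by symbol were called higher in tomato. PPO, polyphenol oxidase, which browns damaged tissue, had ratios of 2.11 and 2.43 in tomato, against -0.21 and 0.06 in pepper. The tomato signal was above that of potato while the pepper signal was close to it. The difference was 2.35 (SE 0.17, adjusted p = 1.5e-05), or 5.09-fold, and a second PPO clone gave 2.17 (SE 0.17). PR1B, a pathogenesis-related protein, was below potato in both species, with -1.90 and -1.92 in tomato, against -2.90 and -2.79 in pepper. Its difference of 0.93 (adjusted p = 0.0062) no longer passed without tomato replicate 1 (adjusted p = 0.06) or pepper replicate 2 (0.068). These are the only 3 clones of the defence list with a value on all 4 arrays, and 2 of them are PPO. All 3 were called higher, where 16.6% of all clones were, with a median of 2.17 against -0.06 over all clones. POTLX-3, a lipoxygenase that the list did not match by symbol, was called lower (-1.05, adjusted p = 0.0046).

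A clone of a hydroperoxide lyase and a clone of a lipoxygenase were called in opposite directions. HPL, hydroperoxide lyase, which makes the green-leaf aldehydes, had ratios of 2.21 and 2.02 in tomato, against 1.37 and 1.16 in pepper. This clone was higher in tomato by 0.85 (adjusted p = 0.006), but not past the threshold without pepper replicate 2 (adjusted p = 0.063). The other HPL clone gave 0.90 with a wide error (SE 0.46) and did not pass. POTLX-3, a lipoxygenase, the kind of enzyme that makes fatty acid hydroperoxides, stood at -1.57 and -1.86 in tomato, against -0.58 and -0.75 in pepper. It was lower in tomato by a log2 difference of -1.05 (SE 0.22, adjusted p = 0.0046).

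More clones of transcription regulators were lower than higher in tomato. Of 10 clones of 7 genes, 5 were lower, 1 was higher and 4 did not pass, with a median of -0.57. Over all clones tested, 18.6% were lower and 16.6% higher. CO, a CONSTANS-type zinc finger regulator known in Arabidopsis for its part in day-length control of flowering, had ratios of -0.92 and -0.07 in tomato, against 2.34 and 1.91 in pepper. The difference was -2.62 (SE 0.38, adjusted p = 0.00065), with tomato below and pepper well above potato. STWRKY8, a WRKY factor, stood at -2.00 and -2.60 in tomato, against -0.35 and -0.52 in pepper, a difference of -1.86 (SE 0.25, adjusted p = 0.0004). Its second clone gave -0.98 and did not pass without tomato replicate 2 (adjusted p = 0.063), pepper replicate 1 (0.054) or pepper replicate 2 (0.078).

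BEL5, a BEL1-like homeodomain protein known in potato as a promoter of tuber formation, was the exception. On 1 clone its ratios were -0.35 and -0.02 in tomato, against -1.93 and -1.31 in pepper, a difference of 1.43 (SE 0.24, adjusted p = 0.0013). On the other clone the species overlapped, with -0.85 and -1.17 in tomato, against -0.92 and -1.55 in pepper, and the difference of 0.23 did not pass. IAA2 and IAA3, Aux/IAA repressors of auxin responses, were both called lower, each at -0.57, but IAA2 did not pass without tomato replicate 1 or either pepper array (adjusted p from 0.11 to 0.21) and IAA3 not without tomato replicate 2 or either pepper array (0.09 to 0.14). NAC2, a NAC-domain factor, was far below potato in both species, at -3.56 on each tomato array, against -2.94 and -2.69 in pepper, and its difference of -0.74 did not pass (adjusted p = 0.088). The clones of MADS16, a MADS-box factor, gave -0.28 and -0.19 and did not pass. With 1 array left out, between 2 and 4 clones of this list were called lower.

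Ascorbate and redox enzymes divided by gene. DHAR and DHAR2 are dehydroascorbate reductases, which regenerate ascorbate. DHAR had ratios of 1.75 and 2.09 in tomato, against 0.12 and 0.73 in pepper, and was higher in tomato by 1.49 (SE 0.17, adjusted p = 0.00014). DHAR2 had 0.30 and -0.11 in tomato, against 1.03 and 1.11 in pepper, and was lower in tomato by a log2 difference of -0.97 (SE 0.20, adjusted p = 0.0044). Its second clone gave -0.93, though without pepper replicate 2 it did not pass (adjusted p = 0.063). So the tomato signal was above potato for DHAR and near potato for DHAR2, and the pepper signal the reverse in order. GRX2, a glutaredoxin, stood at 0.48 and 0.79 in tomato, against 1.23 and 1.30 in pepper. Its difference of -0.63 (adjusted p = 0.018) did not pass without tomato replicate 1 or either pepper array (adjusted p from 0.091 to 0.13). Of the 4 clones of the list, 1 was higher and 3 were lower, with a median of -0.78, where 16.6% of all clones were higher and 18.6% lower. Without pepper replicate 2 only 1 was lower.

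**Figure D3:**
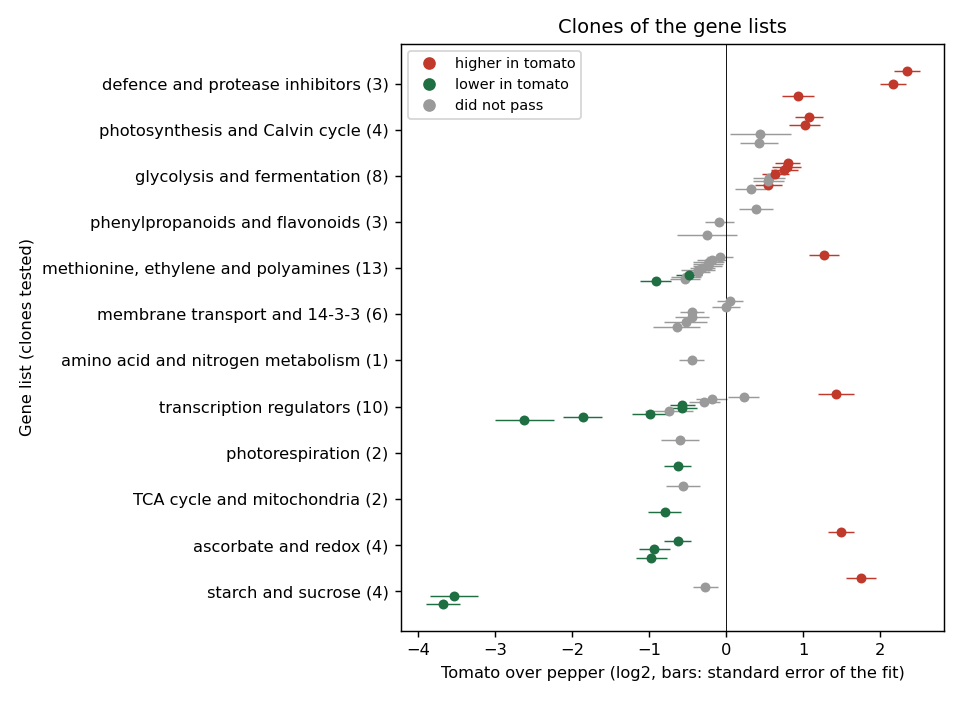
Difference between tomato and pepper (tomato over pepper, log2, x axis) for every tested clone of each gene list, with the standard error of the fit as bars. Lists run down the page by median difference, the number of clones tested is in brackets, and colours give the call. The 3 clones matched to the defence list by symbol lie above 0, and the clones of starch and sucrose genes lie on both sides.

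In the list of methionine, ethylene and polyamine genes, 1 of 13 clones was higher, 2 were lower and 10 did not pass, with a median of -0.31, where 35.1% of all clones passed. With 1 array left out, 1 was higher and between 0 and 4 were lower, with 4 lower without tomato replicate 2 and none without tomato replicate 1 or pepper replicate 2. ARD, the acireductone dioxygenase that recycles methionine from the by-product of ethylene synthesis, had ratios of -0.11 and 0.16 in tomato, against -1.60 and -0.89 in pepper. It was higher in tomato by 1.27 (SE 0.20, adjusted p = 0.00086). METK1, S-adenosylmethionine synthetase, went the other way. All 6 of its tested clones gave values below 0, with differences between -0.92 and -0.36, and 2 passed. The clone with the largest difference stood at -0.70 and -0.63 in tomato, against 0.33 and 0.16 in pepper (adjusted p = 0.0063). It did not pass without tomato replicate 1 (adjusted p = 0.062) or pepper replicate 2 (0.063), and the other called clone did not pass with any 1 of the 4 arrays left out (0.061 to 0.28).

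MS, methionine synthase, gave differences between -0.31 and -0.08 on 5 clones, and none passed. On the MS clone with the largest of these, the ratios were 1.29 and 1.47 in tomato, against 1.58 and 1.80 in pepper, so the signal was above potato in each sample. ERS, an ethylene receptor, stood at -1.49 and -1.17 in tomato, against -1.06 and -1.14 in pepper, and its difference of -0.23 did not pass (adjusted p = 0.39).

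Calls among glycolytic enzymes were all higher in tomato, by small amounts. Of 8 clones in the list of glycolysis and fermentation, 5 were called higher, none lower and 3 did not pass, with a median of 0.60, against 16.6% higher and 18.6% lower over all clones. GAPDH alone made up 4 of the 5. Without pepper replicate 1 none of the 8 was called, and with another array left out between 3 and 6 were. GAPDH, glyceraldehyde-3-phosphate dehydrogenase, had 5 clones with differences between 0.55 and 0.79, of which 4 passed. On the clone with the largest difference the ratios were -0.77 and -0.35 in tomato, against -1.62 and -1.07 in pepper (adjusted p = 0.0088), and without pepper replicate 1 the adjusted p was 0.10. PK, pyruvate kinase, had -0.68 and -0.77 in tomato, against -1.51 and -1.54 in pepper, with a difference of 0.80 (adjusted p = 0.0048) that did not pass without pepper replicate 1 (0.056). LPD2, a lipoamide dehydrogenase, had 2.03 and 2.08 in tomato, against 1.31 and 1.67 in pepper, and its difference of 0.56 did not pass (adjusted p = 0.058). ADH1, alcohol dehydrogenase, gave 0.32 and did not pass (adjusted p = 0.24). PGAM, phosphoglycerate mutase, and LDH-2, lactate dehydrogenase, were not matched to the list by symbol and are not in its counts. PGAM gave 0.19 and 0.44 on 2 clones and LDH-2 gave -0.455, and none of these passed.

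The array named few photosynthetic genes. PSBR, a protein of the oxygen-evolving side of photosystem II, had ratios of 0.71 and 0.68 in tomato, against -0.49 and -0.28 in pepper, and was higher in tomato by 1.08 (SE 0.18, adjusted p = 0.0013). Its other tested clone gave 0.43, with overlapping values, and did not pass. TK, transketolase of the Calvin cycle, had 1.57 and 1.82 in tomato, against 0.77 and 0.57 in pepper, a difference of 1.02 (adjusted p = 0.0036), while its second clone gave 0.45 with a wide error (SE 0.40) and did not pass. Thus 2 of 4 clones in this list were higher and none lower, with a median of 0.73, where 16.6% of all clones were higher. CAT1, the catalase that removes peroxide from photorespiration, stood at 0.57 and 0.41 in tomato, against 1.15 and 1.08 in pepper. It was called lower by -0.63 (adjusted p = 0.02), but not with any 1 of the 4 arrays left out. The difference was then between -0.66 and -0.60. The second clone of CAT1 gave -0.60 and did not pass.

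Of the mitochondrial list, AOX was called lower in tomato and UCP did not pass. AOX, the alternative oxidase, had 0.37 and 0.39 in tomato, against 1.30 and 1.05 in pepper, a difference of -0.80 (SE 0.22, adjusted p = 0.017). It did not pass without tomato replicate 1 or either pepper array (adjusted p from 0.078 to 0.14). UCP, an uncoupling protein, had -0.63 and -0.74 in tomato, against -0.36 and 0.11 in pepper, and its difference of -0.56 did not pass (adjusted p = 0.07). Among mitochondrial genes in no list, PDHE1-A gave 0.48 and -0.20 on 2 clones and TYKY2 gave 0.08, and none passed. TOM20, an import receptor of the outer membrane that was also in no list, had -1.17 and -1.30 in tomato, against -0.59 and -0.46 in pepper. It was called lower by -0.71 (adjusted p = 0.012), but not without tomato replicate 2 or either pepper array (0.067 to 0.077).

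Of the 6 clones of the transport list none passed, where 35.1% of all clones did, but without tomato replicate 2 the count lower in tomato was 3. KST1, a potassium channel of guard cells, gave 0.05 and 0.00 on its 2 clones, with ratios between -0.17 and 0.08 on all 4 arrays. SKT3, a potassium channel subunit, gave -0.44 (adjusted p = 0.054), and the 3 clones of PHA2, a plasma membrane proton pump, lay between -0.64 and -0.44. FLS, flavonol synthase, had differences of 0.39, -0.09 and -0.25 on 3 clones and none passed. BCAT1, a branched-chain aminotransferase, gave -0.45 (adjusted p = 0.059). A p above the threshold does not show that these genes were alike in tomato and pepper. No symbol on the array fell into the lists of ribosome, ubiquitin, chaperone or isoprenoid genes.

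Further named genes with a large difference were in no list. CYCD3.3, a D-type cyclin that acts at entry into the cell cycle, had 1.85 and 1.87 in tomato, against 0.46 and 0.72 in pepper, a difference of 1.27 (SE 0.18, adjusted p = 0.00076). CYCD3.2, of the same family, had 0.76 and 1.20 in tomato, against 0.52 and 1.20 in pepper, and did not pass (adjusted p = 0.64). IPMK, inositol polyphosphate multikinase, stood at -0.75 and 0.23 in tomato, against 0.46 and 1.56 in pepper. Both species were higher in replicate 2, and the paired difference was -1.27 (SE 0.17, adjusted p = 0.00036). PKIN1, a kinase related to SNF1, had -0.94 and -0.64 in tomato, against -0.07 and 0.12 in pepper, and was lower by -0.82 (adjusted p = 0.012), though not without tomato replicate 1 (0.093) or pepper replicate 2 (0.096).

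All 3 clones of SI1 were called higher in tomato, by 1.90, 1.54 and 1.46. The first had -0.29 and -0.16 in tomato, against -2.40 and -1.84 in pepper. MIP2 was higher by 1.58 (SE 0.20) and DD by 1.07 (SE 0.17). On the other side, POTPRO1 had 0.33 and 0.50 in tomato, against 2.38 and 2.54 in pepper, a difference of -2.05 (SE 0.24, adjusted p = 0.00027). RSI5 was lower by -1.19 (SE 0.21) and the clones of CBL by -1.13 and -0.95, with the second of these not past the threshold without pepper replicate 1 (adjusted p = 0.063) or 2 (0.077). Both tested clones of SS16 were called lower, by -1.02 and -0.61. The first did not pass without tomato replicate 1 (adjusted p = 0.064) or pepper replicate 1 (0.083), and the second not without tomato replicate 1 or either pepper array (0.10 to 0.21). RGGA was lower by -0.99 on 1 of its 4 clones, while the others gave -0.54, -0.35 and 0.40 and did not pass. With its 4 clones averaged RGGA did not pass (adjusted p = 0.065).

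Of the 12 largest differences in each direction among clones with a symbol, 19 belonged to genes known only by a locus number. LOC102582373 had 0.78 and 1.20 in tomato, against -2.94 and -2.47 in pepper, a difference of 3.70 (SE 0.24, adjusted p = 7.8e-06). A second clone of this locus gave 3.56, but another, with 0.34 and 0.20 in tomato, against 0.48 and 0.39 in pepper, gave -0.17 and did not pass. LOC102602308 was far above potato in tomato, with 4.26 and 4.87, against 1.03 and 1.75 in pepper, and its 3 clones gave 3.17, 2.91 and 1.82. LOC102602150 had 2.69 and 2.73 in tomato, against 0.22 and 0.24 in pepper, with a difference of 2.48. LOC102577637, LOC102577503, LOC102584296, LOC102599440, LOC102591978, LOC102589404, LOC102601908 and LOC102580877 had differences between 2.18 and 2.85 on the clone with the largest difference. The other clones of LOC102577503 gave 0.22 and 0.15 and did not pass, and those of LOC102577637 gave 1.35, which passed, and 0.55, which did not.

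On the lower side, LOC102596978 gave -3.35, -3.09 and -2.82 on 3 clones. Its largest difference came from -0.65 and -0.31 in tomato, against 2.58 and 3.15 in pepper. LOC102577429 had -2.40 and -2.12 in tomato, against 0.64 and 0.58 in pepper, a difference of -2.87 (SE 0.32), with -2.72 on its second clone. LOC102598951 was above potato in both species, with 1.47 and 1.56 in tomato, against 2.98 and 4.21 in pepper. LOC102606273, LOC102596966, LOC102587567, LOC102598951, LOC102583272 and LOC102589911 had differences between -2.78 and -1.98. The tomato and pepper values did not overlap for any of these 19 loci on the clone with the largest difference. These clones were chosen for a large called difference, which favours such a result, so it is no separate support. Ratios far below potato, such as -4.06 and -4.32 for LOC102580877 in pepper, stand for a few hundredths rounded to 2 decimals, so their size is coarse.

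**Figure D4:**
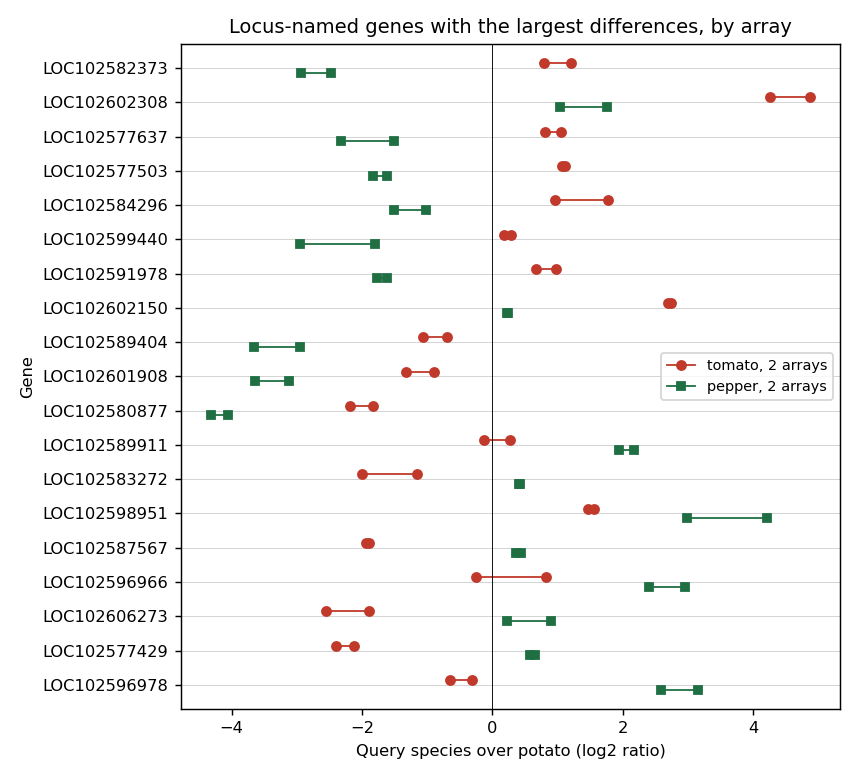
Log2 ratio of tomato (red circles) and pepper (green squares) over potato for the 19 genes with a locus number alone among the 12 largest called differences in each direction, on the clone with the largest difference. Each point is an array. The first 11 genes from the top were higher in tomato, by 2.18 or more, and the 8 below them were lower. In none do the species overlap, which the choice of large called differences favours.

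Clones with no gene symbol reached larger values still. Clone 144708 had 0.45 and 0.55 in tomato, against -5.06 and -4.69 in pepper, a difference of 5.38, and clone 144953 gave 4.97. Clone 155654 had -2.09 and -1.84 in tomato, against 2.39 and 3.10 in pepper, a difference of -4.71, and clone 147667 gave -4.02.

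Clones of the same gene did not always share a call. Of 157 genes with 2 or more clones tested, 21 had every clone called higher, 20 had every clone called lower and 57 had none called. In 55 genes some clones passed, in 1 direction only, and others did not. In the 4 remaining genes (LOC102577839, LOC102580103, LOC102589596 and LOC102594653) clones passed in both directions. LOC102580103 had 5 clones, 4 of them higher and 1 lower, with differences from -0.59 to 1.35. Over the 157 genes, the SD among clones of a gene was 0.47 and the SD of the gene medians was 0.95, both on the log2 scale. Genes with a shared sequence may bind to the same clone, and near-identical copies cannot be separated here.

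Set against potato, the differences had no fixed side. Clones called higher in tomato had median ratios over potato of 0.45 in tomato and -0.54 in pepper, and clones called lower had -0.39 in tomato and 0.54 in pepper. Tomato was the nearer of the 2 species to potato at 766 (52.9%) of the clones called higher and at 881 (54.3%) of those called lower. Beyond 2-fold these shares were 56.3% and 46.6%. Over all 8739 clones, 76.0% were within 2-fold of potato in tomato and 74.1% in pepper. The median size of the ratio was 0.53 in tomato and 0.58 in pepper.

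Tomato and pepper were each set against the 3 other species. Over 7823 clones that were measured on all 10 arrays, tomato differed from the mean of tobacco, N. benthamiana and petunia at 3902 clones (49.9%), 1746 higher and 2156 lower. Pepper differed from the same mean at 2984 clones (38.1%), 1488 higher and 1496 lower. These tests share the arrays of the 3 species with each other, and the tomato and pepper arrays with the main comparison. The values of each are therefore set side by side for single genes, and their overlap is only counted. The median size of the difference between tomato and pepper over these clones was 0.41. Between tomato and each of the 3 other species it was 0.45 to 0.47, and between pepper and each of them 0.36 to 0.39. Without pepper replicate 1 the count for pepper was 1280, and without pepper replicate 2 it was 1426.

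Of the 7823 clones, 2796 were called between tomato and pepper. Against the mean of the 3 species, tomato alone passed at 1189 of them (42.5%) and pepper alone at 756 (27.0%). Both passed on opposite sides at 359 (12.8%), both on the same side at 320 (11.4%) and neither at 172 (6.2%). The genes below and their clones were chosen by the difference between tomato and pepper on the same arrays, so a pass is no separate support. For several genes, on the clone with the largest difference, 1 of the 2 species passed this test and the other did not. In some of them it was pepper. STUGE51 stood at -0.27 relative to the mean of the 3 species in tomato (adjusted p = 0.22) and at 3.41 in pepper (adjusted p = 3.2e-06). Tobacco had a mean ratio over potato of -1.93, N. benthamiana of -2.28 and petunia of -1.16, near the tomato values. IPMK gave -0.19 in tomato (adjusted p = 0.26) and 1.08 in pepper (adjusted p = 2.0e-04), and METK1 gave 0.34 in tomato (adjusted p = 0.10) and 1.26 in pepper (adjusted p = 0.00023). On the 5 other tested clones of METK1 tomato passed as well, with adjusted p from 2.0e-04 to 0.019. ARD was low in pepper, with -0.24 in tomato (adjusted p = 0.24) and -1.50 in pepper (adjusted p = 6.3e-05).

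For others it was tomato. SI1 gave 1.80 in tomato (adjusted p = 1.1e-05) and -0.10 in pepper (adjusted p = 0.63). BEL5 gave 1.35 in tomato (adjusted p = 0.0003) and -0.08 in pepper (adjusted p = 0.75). RSI5 gave -1.29 in tomato (adjusted p = 0.00016) and -0.10 in pepper (adjusted p = 0.66), and AOX gave -1.03 in tomato (adjusted p = 0.00081) and -0.23 in pepper (adjusted p = 0.31). LOC102577503 was 2.80 above the mean of the 3 species in tomato (adjusted p = 2.3e-06), and pepper gave -0.01 (adjusted p = 0.95). This held on 1 of its 3 tested clones. On another clone of this locus both species lay below the mean of the 3 others, by -0.51 in tomato (adjusted p = 0.013) and -0.66 in pepper (adjusted p = 0.005).

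For the remaining examples both passed. PPO was 1.81 above the mean of the 3 species in tomato (adjusted p = 6.1e-06), and pepper gave a smaller value on the other side, -0.54 (adjusted p = 0.01). DHAR was above that mean in both, by 2.18 in tomato (adjusted p = 3.0e-06) and 0.69 in pepper (adjusted p = 0.003). DHAR2 was above it in both as well, by 0.86 in tomato (adjusted p = 0.0014) and 1.83 in pepper (adjusted p = 2.5e-05). GBSS was below it in both, with -0.68 in tomato (adjusted p = 0.0042) and -2.44 in pepper (adjusted p = 6.5e-06). N. benthamiana by itself had a mean ratio over potato of 2.14 on this clone, against 2.315 in tomato. CO was below the mean of the 3 in tomato (-1.59, adjusted p = 0.0018) and above it in pepper (1.03, adjusted p = 0.023). LOC102584296 was above it in tomato (0.98, adjusted p = 0.0003) and below it in pepper (-1.64, adjusted p = 2.0e-05). Its mean ratio over potato in N. benthamiana was 1.17, near the 1.36 of tomato.

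**Figure D5:**
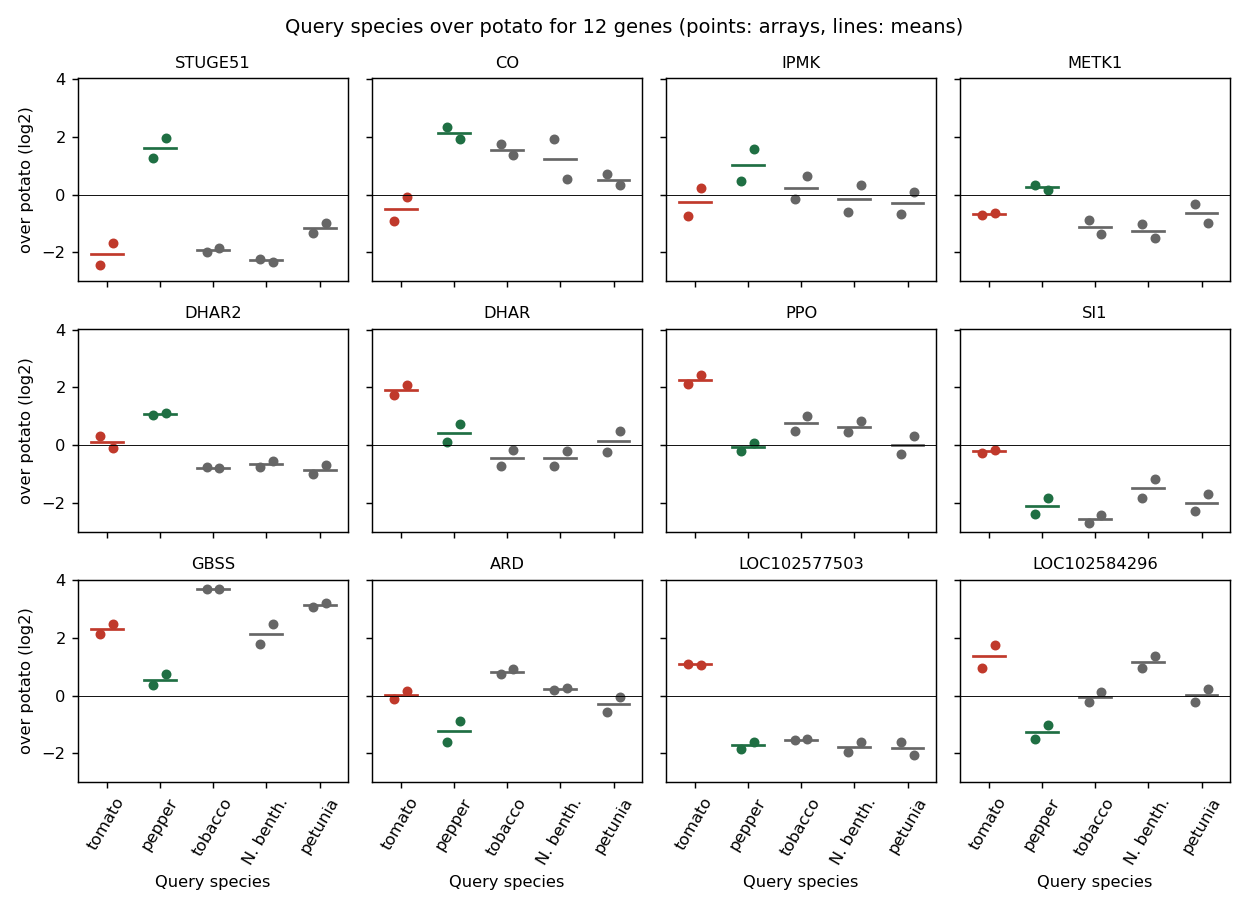
Log2 ratio over potato (y axis) in tomato, pepper, tobacco, N. benthamiana and petunia for 12 genes, on the clone with the largest difference between tomato and pepper. Points are arrays and lines are means of the 2 arrays. On these clones tomato stands alone for LOC102577503, with 1.11 and 1.06, and pepper stands alone for STUGE51, with 1.28 and 1.95. The choice of clones by their difference between tomato and pepper favours such a result. The 2 other clones of LOC102577503, not drawn, gave 0.22 and 0.15 for tomato over pepper.

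Some clones had values in only 1 of the 2 species. A value on both arrays of a species was present for 9918 clones in tomato and 9051 in pepper. There were 228 clones with a value on both tomato arrays and on neither pepper array, and 60 with a value on both pepper arrays and on neither tomato array. The first had a median ratio over potato of 0.18 in tomato, with 13.2% of them more than 2-fold above and 6.58% more than 2-fold below potato. The second had a median of -0.13 in pepper, with 16.7% more than 2-fold above and 18.3% more than 2-fold below potato. Over the 8739 members, the shares above and below were 9.6% and 14.4% in tomato and 11.1% and 14.8% in pepper. With the direction of the ratio turned, above and below would change places. A single symbol was given for 4 and 12 of these clones. A clone each of CAT1, METK1 and PSBR had values in pepper alone, although other clones of these genes were measured in both species, and CDPK1, a calcium-dependent protein kinase, had values in tomato alone (-0.03 and -0.34). Spots that failed in the potato channel were removed too, so a missing value does not show that a transcript was absent.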

How the data were processed

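RNA of mature leaves was measured on 2-colour potato cDNA arrays. The authors quantified the scans with GenePix 5.0, removed spots not found in 1 channel, with over 30% saturated pixels or under 70 µm across, subtracted the local background and normalized by quantiles with limma, a tool that the submitters' processing notes list with no version. The deposited values are log2 ratios, 1 per spot. Each is the negative log2 of a channel ratio that had been rounded to 2 decimals. No spot of the 4 arrays had a ratio of exactly 1, so spots of equal signal may be among the missing values. Single-channel signals, and hence depth or brightness, were not analysed here.

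From these, the 2 spots of each clone were averaged and the sign was turned to the query species over potato. The 32448 spots held 15360 clone positions in duplicate and 1728 empty positions, none with a value. All 905 pairs of spots sharing a sequence record fit this layout. Symbols came from a table of GEO's platform annotation, which can be old: 815 clones had 1 symbol, 90 several and 14455 none. Gene names were left out for clones with several. Genome positions, sequences and gene descriptions were not used here.

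limma 3.58.1 in R 4.3.3 fitted all 10 arrays with 1 coefficient per species and the replicate number as a block, since the labels give 1 potato extract per replicate. The deviations of tomato and pepper arrays of the same number correlated at 0.387 across clones. The contrast of tomato and pepper was moderated by empirical Bayes and adjusted by Benjamini-Hochberg over 8739 clones, and that of each species with the mean of 3 others over 7823 clones. All adjusted p values come from these fits. Calls are at an adjusted p under 0.05. The scripts were tested on simulated data. Counts were made in pandas 2.3.3 and scipy 1.17.1 under Python 3.11.15, and plots in matplotlib 3.10.9.

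Members, gene lists and tests were chosen with earlier results of these data known. Lists were matched by symbol alone. CAT1 also matched the spelling of a photosynthesis pattern and was kept in photorespiration. Genes named were the 12 largest called differences in each direction with the same sign in both replicates, 1 clone per gene, the 10 largest with a gene name, up to 4 genes of each list by size of difference, called or not, and 2 clones without a symbol per direction. MADS16, IAA2, IAA3, STUGE45, HPL, PAIN-1, TOM20, PDHE1-A, TYKY2, PKIN1, CYCD3.2, CDPK1, PGAM and LDH-2 were added after their values were seen. So were the loci with clones called in both directions. Alternatives covered the block, the arrays and clones fitted, centring, scaling, shrinkage, threshold, averaging over a gene's clones and leaving out each array. With 2 arrays per species, their number limits the precision.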

Additional observations from a re-analysis of the deposited data

How the results depend on the processing

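With the replicate number as a fixed block, 3070 clones differed between tomato and pepper (1447 higher, 1623 lower in tomato). With no replicate block 1491 were called (745 higher, 746 lower), each of them also called with it. At an adjusted p under 0.01 there were 1672 (861 and 811). Tested against a change of 1.5-fold there were 701 (375 and 326), all beyond 2-fold. With the clones of a gene averaged, 187 of 391 genes were called (102 and 85), 72 beyond 2-fold, a smaller number because only genes with a symbol were tested. With 1 array left out, the counts were 1584 to 2678 in all, 798 to 1201 higher and 786 to 1477 lower, and 1154 to 1541 beyond 2-fold. The share of called clones that were higher in tomato was 47.1%, and 48.3% with median-centred arrays. The remaining settings gave counts within 1.5-fold, from 2398 with both spots required on all 4 arrays to 3568 with scaled arrays.

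Tomato stood apart from the mean of the 3 other species at 3902 clones, and at 2499 with no replicate block. Pepper did at 2984, against 1546 with no replicate block, 1716 at an adjusted p under 0.01 and 1280 to 3299 with 1 array left out. Why the block and single arrays move these counts was not tested. Of the 60 genes named by rule, 48 were called and 30 were called under each alternative, with no change of sign among them. With an array left out 8 lost the call, with no replicate block 9, against a 1.5-fold change 16 and at an adjusted p under 0.01 3.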
